A study of Mus musculus with 96 samples.

Results

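The first knockdown experiment of the study compared 2 cultures of EL4, a T-lymphoma cell line from a C57BL/6 N mouse (C57BL/6 in the sample labels). The control culture, shLuc #1 (WT), carried a short hairpin RNA against luciferase, and the knockdown culture, shCTCF #1 (CTCF-KD), carried one against Ctcf. The cells of both cultures were infected with viral particles that also encode GFP, and GFP-positive cells were sorted 5 days later. Single cells were captured on the Fluidigm C1 system, 1 integrated fluidics circuit (IFC) per culture, and wells with no cell or double cells had been removed by the authors. From each IFC the authors then chose the 24 best cells by quality, so the values below describe these chosen cells. Of the 96 cells of the series, 48 belong to this experiment by their sample titles, 24 per culture, and all 48 had at least 3000 genes with TPM above 0, where TPM is the transcript share of a gene scaled to gene length and to the total of the cell. The other 48 cells came from a second experiment with the cultures shLuc #2 and shCTCF #2, of which 47 passed the same filter. The sources do not settle whether the shCTCF cultures of the 2 experiments carried the same hairpin. Since experiment 1 has 1 culture on each side, its differences have no replicate check, and culture, circuit and condition cannot be told apart.

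CTCF is a zinc finger protein that binds DNA and, together with the ring-shaped cohesin complex, holds the bases of chromatin loops. It insulates promoters from enhancers outside their loop and is present in nearly every cell type. In T cells it is known for its part at the T cell receptor loci and in the regulation of genes of the T cell lineage.

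The cells of shLuc #1 held 177580 to 379314 reads recovered from the TPM values (median 247586), and those of shCTCF #1 held 104502 to 310865 (median 234260). The number of genes with TPM above 0 per cell was 3525 at the lowest, 4771 at the median and 6534 at the highest in shLuc #1, and 4427, 6172.5 and 6902 in shCTCF #1. More genes were thus found in CTCF-KD cells although their reads were not more numerous. After each cell was thinned to 100000 reads, the medians were 4324.5 and 5434.5 genes, so the gap of 1110 genes stood at equal depth. When every cell of one culture was set against every cell of the other, the CTCF-KD member of the pair had more genes in 87.7% of pairs as deposited and in 88.2% after thinning. Among 10 T cell markers all had reads in both cultures, and their summed level was 2421 to 15427 TPM in WT cells and 3522 to 11946 TPM in CTCF-KD cells. Macrophage markers had reads for 1 and 2 of 10 genes, with Cd14, Adgre1 and Lyz2 at 0, and reached 529 and 475 TPM. Fibroblast markers (2 and 1 of 8 genes with reads) reached 4.08 and 31.9 TPM and erythroid markers (0 and 2 of 6 genes) reached 0 and 33.1 TPM, and the median cell was at 0 for each of these 3 lists in both cultures.

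A gene's level in a culture was taken as the mean over its cells of log2(TPM + 1). The 11193 genes whose log2(TPM + 1) exceeded 1 in 2 or more of the 48 cells were kept. The level in shCTCF #1 minus that in shLuc #1 had a median of 0.34 over these genes. Differences in level below are given relative to the median of their own comparison and scale, so that 0 is the median gene. For experiment 2 that median was 0.23. Not centred are the differences in the test over the 4 cultures and the log2 TPM differences among cells with reads. Values given as before or without centring are not centred either. A difference of 2 or more in size, which is 4-fold on this scale, is called past the cut. On this scale a difference holds both the share of cells with reads and the level in those cells, and it understates changes of genes with low TPM.

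Ctcf, the target of the hairpin, lies at chr8:105636568-105682922 (GRCm38) on the plus strand and overlaps Agrp on the opposite strand. In shLuc #1 its level was 0 TPM at the lowest, 34.5 at the median and 317 at the highest, with reads in 19 of 24 cells (79.2%, exact 95% binomial interval 57.8% to 92.9%). In shCTCF #1 it was 0, 3.62 and 125 TPM, with reads in 16 of 24 cells (66.7%, 44.7% to 84.4%). The median cell thus held far less Ctcf mRNA in the knockdown culture, but the 2 cultures overlapped, and most CTCF-KD cells still had Ctcf reads. The centred difference was -2.17. It was larger in size, -3.03, among the cells whose number of genes lay in the range both cultures held, and -1.91 when TPM was averaged before the log was taken. In experiment 2 the centred difference of Ctcf was 0.35, with a median of 19.1 TPM in shLuc #2 and 31.5 TPM in the culture labelled shCTCF #2. The culture pair of experiment 1 is therefore the one in which Ctcf mRNA was lower by these TPM values in the culture labelled as the knockdown, and CTCF protein was not analysed here.

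Junb, Txnip and Nolc1 each had a larger difference in size than Ctcf over all 48 cells, but in the shared range of genes per cell Junb (-3.02) and Nolc1 (3.02) were at about the same size as Ctcf (-3.03). Junb, which encodes a subunit of the AP-1 transcription factor, lies at chr8:84974484-84978718 on the minus strand and overlaps Prdx2 on the other one. It had 0 TPM at the lowest, 109 at the median and 825 at the highest in WT cells, and 0, 17.8 and 84.9 in CTCF-KD cells, a centred difference of -2.72. All CTCF-KD cells thus lay below the WT median for Junb, and reads were found in 23 of 24 WT cells and 18 of 24 CTCF-KD cells. Txnip, at chr3:96557957-96561883 on the plus strand, encodes an arrestin that restrains glucose uptake. Its levels were 7.52, 241 and 1137 TPM in WT cells and 0, 10.5 and 180.2 TPM in CTCF-KD cells, a centred difference of -4.24. The CTCF-KD cell was the higher one in 9.9% of cell pairs. Nolc1, at chr19:46075863-46085530 on the plus strand, encodes a nucleolar chaperone of small nucleolar ribonucleoproteins (snoRNPs). It was at 0, 3.72 and 246 TPM in WT cells and at 2.25, 144 and 426 TPM in CTCF-KD cells, with reads in 14 and 24 of 24 cells and a centred difference of 3.49. Cells without Nolc1 reads were thus found in the control culture only.

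**Figure D1:**
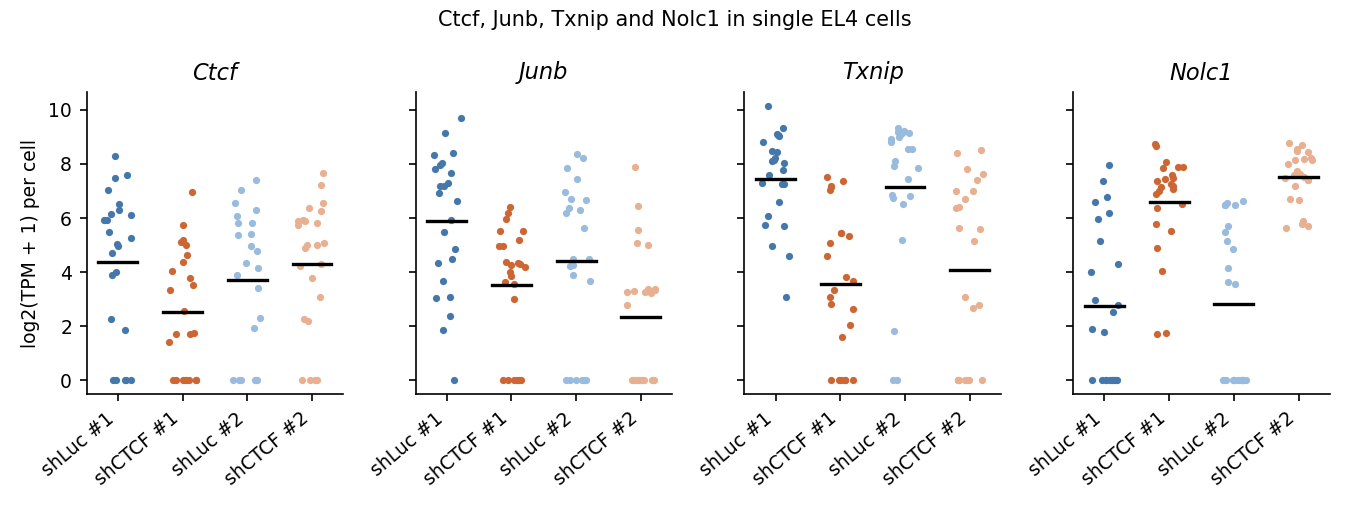
Level of Ctcf, Junb, Txnip and Nolc1 in each cell, as log2(TPM + 1), in the 4 cultures; points are cells (24, 24, 23 and 24, from left to right) and black lines are means over cells. Junb and Txnip were lower and Nolc1 higher in the shCTCF culture of both experiments, while Ctcf was lower in shCTCF #1 only, with centred differences of -2.17 and 0.35.

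Across all genes, 493 were higher in shCTCF #1 by the cut or more (4.4% of 11193) and 63 were lower (0.563%). Higher genes thus made up 88.7% of those past the cut. For comparison, and with a culture shared with experiment 1 in each case, the 2 control cultures, shLuc #2 minus shLuc #1, put 88 genes (0.786%) past the cut upward and 112 (1.0%) downward, and the 2 knockdown cultures, shCTCF #2 minus shCTCF #1, put 65 (0.581%) and 131 (1.17%). The count of higher genes in experiment 1 was therefore several times that between cultures of like condition, whereas the count of lower genes was below it. Nearest to the cut on the higher side were Map2k2 (2.002) and D17H6S53E (2.006) inside and Shq1 (1.993) and Dhrs7b (1.994) outside. On the lower side they were Tmem50b (-2.003) and Chd3 (-2.007) inside and Gzmm (-1.997) and Scd2 (-1.9999) outside.

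The higher genes were found in more cells and mostly at higher levels, and the lower genes in fewer cells and at lower levels. The 493 higher genes had reads in a median of 11 WT cells and 21 CTCF-KD cells, and all 493 had reads in more CTCF-KD cells. Among the cells with reads, their log2 TPM was higher by a median of 0.82, and 426 of the 491 that had reads in both cultures were higher there. The 63 lower genes had reads in a median of 20 WT cells and 14 CTCF-KD cells, and among cells with reads their log2 TPM differed by a median of -1.54. Over all genes tested the median number of cells with reads was 9 in WT and 13 in CTCF-KD, and 7530 of 11193 had reads in more CTCF-KD cells. Among cells with reads, log2 TPM over all genes differed by a median of -0.13, and 4679 of 10569 genes were higher there. The number of genes found per cell, which was higher in CTCF-KD cells, moves with the counts of cells with reads. Its part in them was not tested. Restricted to cells with 4427 to 6534 genes, the range both cultures held, 18 WT cells (median 5017 genes) and 17 CTCF-KD cells (median 5909 genes) remained, and 441 genes were higher and 145 lower, so that 75.3% of the genes past the cut were higher. When TPM was averaged before the log, 645 genes were higher and 446 lower (59.1% higher), but the same scale put 627 and 749 genes past the cut between the 2 control cultures. With a pseudocount of 0.1, 76.2% were higher. All 493 higher and all 63 lower genes kept the sign of their difference on the log of the mean TPM, where 106 and 34 of them were past the cut.

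**Figure D2:**
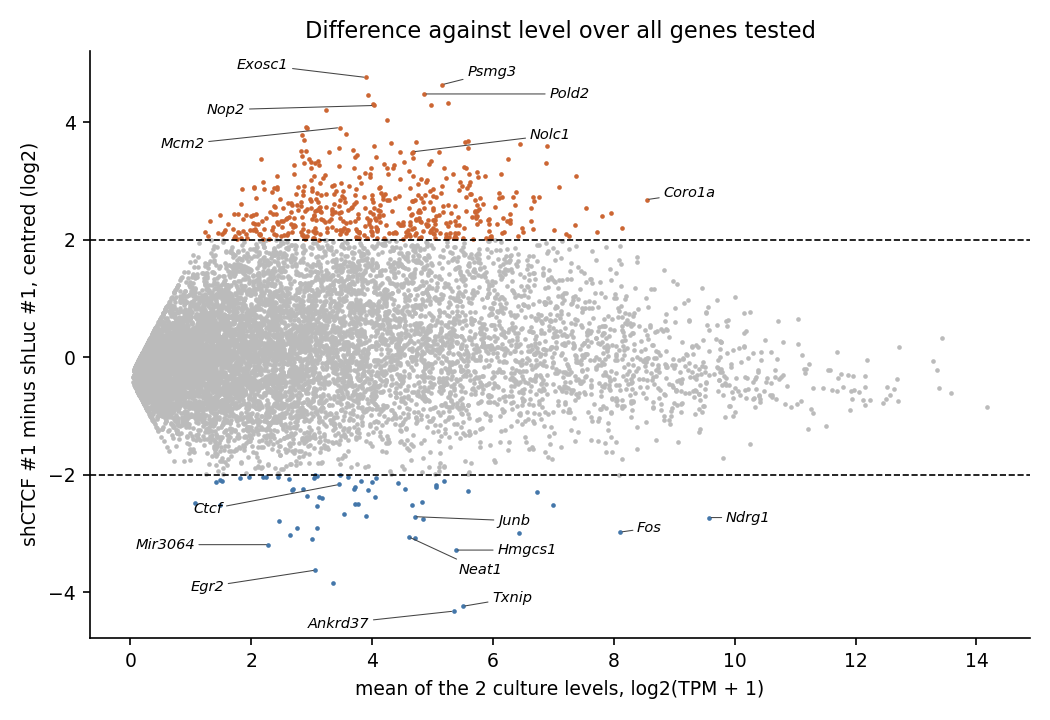
Centred difference of shCTCF #1 minus shLuc #1 (log2) against the mean of the 2 culture levels, log2(TPM + 1), for the 11193 genes tested; dashed lines mark the cut of 2 in each direction. The 493 genes above the upper line include Exosc1 at 4.76, and the 63 genes below the lower line include Ctcf at -2.17 and Ankrd37 at -4.32.

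Of the 12 genes with the largest higher values, Exosc1 stood first with a centred difference of 4.76. Exosc1, at chr19:41922292-41933423, encodes a subunit of the RNA exosome, which trims and degrades RNA. Its level was 0 TPM at the lowest and at the median and 98.6 at the highest in WT cells, and 0, 139.6 and 408 TPM in CTCF-KD cells, with reads in 8 and 23 cells. Exosc1 reads were thus missing from most WT cells and from 1 CTCF-KD cell. The control cultures themselves lay apart for Exosc1, with a mean log2(TPM + 1) of 1.35 in shLuc #1 and 4.58 in shLuc #2, and for Mcm2, with 1.34 and 3.83. Psmg3, a chaperone of proteasome assembly at chr5:139823592-139826885, followed with 4.64 and reads in 9 WT and 22 CTCF-KD cells. Pold2, a subunit of DNA polymerase delta at chr11:5872180-5878292, had a difference of 4.48, and Apex1, the main apurinic endonuclease of base excision repair at chr14:50924968-50927139, one of 4.46. Creld2, a chaperone of the endoplasmic reticulum, was higher by 4.32. Umps, which completes the synthesis of UMP in the pyrimidine pathway, was higher by 4.31, with a median of 0 TPM in WT and 131 TPM in CTCF-KD cells. The remaining genes were Rgs19, a regulator of G protein signalling (4.30), Nop2, a methyltransferase of 28S ribosomal RNA (4.28), Dnph1, a nucleotide hydrolase (4.21), Haus4, a subunit of the augmin complex of the spindle (4.04), Snord52, a box C/D small nucleolar RNA (3.91), and Mcm2, a subunit of the replicative helicase (3.91). The median WT cell had 0 TPM for all 12. Snord52 lies inside 1110038B12Rik on the same strand and had 12 reads in WT and 64 in CTCF-KD cells, so its reads cannot be separated from those of its host. With cells thinned to equal reads and no length scaling its difference was 0.84, within the cut. In experiment 2 the differences of these 12 genes ranged from 0.51 for Mcm2 to 4.54 for Creld2.

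Ankrd37 and Txnip had the lowest values among all genes. Ankrd37, at chr8:45996902-46005707, encodes an ankyrin repeat protein, is a well-known target of hypoxia-inducible factor (HIF) and overlaps Lrp2bp and Ufsp2 on the opposite strand. It had reads in all 24 WT cells, from 10.8 over 217 to 2848 TPM, and in 13 CTCF-KD cells, with 0, 12.5 and 444 TPM, a difference of -4.32. Its mean log2(TPM + 1) was 7.34 in shLuc #1 and 5.09 in shLuc #2, so the control cultures lay past the cut from each other, as they did for Sertad3 (4.39 and 2.39). Gm15441 (-3.85) overlaps Txnip on the opposite strand, and without strand in the reads the 2 cannot be told apart. Egr2, an early growth response transcription factor, had reads in 20 WT and 8 CTCF-KD cells (-3.63). Hmgcs1, the synthase that supplies HMG-CoA for sterols, had a median of 141 TPM in WT and 20.2 TPM in CTCF-KD cells (-3.28). The others were Mir3064 (-3.19), Sertad3, a SERTA domain protein (-3.10), Kdm3a, a histone H3 lysine 9 demethylase (-3.09), Neat1, the long noncoding RNA that scaffolds paraspeckles (-3.06), Ip6k1, an inositol hexakisphosphate kinase (-3.03), Ppp1r15a, which directs dephosphorylation of eIF2alpha and overlaps Tulp2 on the opposite strand (-2.99), and Fos, an AP-1 subunit (-2.98). Mir3064 lies inside Ddx5 on the same strand, and its value rests on 19 reads in WT and 3 reads in CTCF-KD cells; with thinned reads it was -1.70, within the cut. All 12 were also below 0 in experiment 2, from -0.76 for Sertad3 to -4.11 for Mir3064. Outside the naming rule, 2610524H06Rik and Thap11 were past the cut with 0 WT cells and 12 and 13 CTCF-KD cells with reads, and Gm853 was past it with reads in 9 WT and 0 CTCF-KD cells. These 3 were singled out after their values were seen.

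Ribosome biogenesis was the list with the most genes past the cut. These genes encode the nucleolar factors that transcribe, cut and modify ribosomal RNA and assemble the subunits, and 46 of the 129 tested were higher by the cut or more, or 35.7% against 4.4% of all genes. The median difference of the list was 1.52 against 0 for all genes, and 117 members lay above 0. Nop2 led the list after Exosc1. Ppan, a factor of the large subunit, had reads in 5 WT and 20 CTCF-KD cells and a difference of 3.91. Nop56, a core protein of box C/D snoRNPs that overlaps Idh3b on the opposite strand, was at 0, 38.96 and 833 TPM in WT and at 74.1, 505 and 1638 TPM in CTCF-KD cells, a difference of 3.60. Every CTCF-KD cell thus lay above the WT median for Nop56. Other snoRNP core proteins past the cut were Nop58 (2.93), Dkc1 (2.56) and Gar1 (2.54). Noc4l (3.60), Imp4 (2.73) and Bop1 (2.21) stood for processing of the precursor RNA, and Gnl3 (3.06), a nucleolar GTPase, and Mdn1 (2.09), the giant AAA ATPase of the large subunit, for later assembly. Znrd1, a small subunit of RNA polymerase I, was the only member past the cut downward (-2.46, with reads in 21 WT and 14 CTCF-KD cells). The mean log2(TPM + 1) over the list was 1.98 to 4.33 in WT cells and 3.396 to 5.66 in CTCF-KD cells. It was higher in the CTCF-KD cell in 97.4% of pairs, and 18 of 24 CTCF-KD cells lay above every WT cell. Within the shared range of genes per cell the list's median was 1.33, and on the log of the mean TPM it was 0.89.

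Of 77 mitochondrial ribosomal proteins, which are encoded in the nucleus, 17 were higher by the cut or more (22.1% against 4.4% of all genes) and 0 lower, with a median of 1.28. Mrps26 led with 2.97 and medians of 9.51 and 184 TPM. Mrpl16 (2.88), Mrps2 (2.83) and Mrps11 (2.80) followed. Of 80 cytosolic ribosomal proteins 0 were past the cut, the median was -0.37, and 59 lay below 0. Before centring that median was -0.04, close to no difference between the cultures. The largest cytosolic values were those of Rpl12 (1.55) and Rps27a (1.39).

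The de novo purine pathway builds inosine monophosphate on ribose phosphate in consecutive steps, and 5 of its 13 genes were past the cut upward (38.5% against 4.4% of all genes) and 0 downward, with a median of 0.96. Pfas, which forms formylglycinamidine ribonucleotide, was at 0, 5.48 and 54.9 TPM in WT and at 39.4, 87.2 and 238 TPM in CTCF-KD cells, a difference of 3.39. Its CTCF-KD value was the higher one in 98.96% of pairs, the largest share among the genes named by the rule. Atic, which carries out the last steps, differed by 2.98, Ppat, the first and committed step, by 2.77, Gart by 2.64 and Prps1, which makes the ribose phosphate donor, by 2.39. Ppat and Paics overlap on opposite strands. In the serine and folate one-carbon list, which supplies formyl and methylene groups, 4 of 13 genes were past the cut upward (30.8%) and 0 downward, with a median of 1.01. These were the folate enzyme Mthfd1 (3.56), the thymidylate synthase Tyms (3.06) and the serine hydroxymethyltransferases Shmt1 (2.78) and Shmt2 (2.28).

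Genes of the G1/S transition and DNA replication had the highest median of all lists, 1.56. Of these, 12 of 38 were past the cut upward (31.6% against 4.4% of all genes) and 0 downward. Ccne1, which encodes cyclin E1, had reads in 4 WT and 19 CTCF-KD cells and a difference of 3.70. The helicase subunits Mcm2 (3.91), Mcm5 (2.66), Mcm6 (2.38) and Mcm7 (2.12), the clamp Pcna (2.03) and its loader subunit Rfc4 (3.08) were among the others. Of 45 G2/M genes 7 were past the cut upward (15.6%) and 0 downward, with a median of 0.77. Cdc20, an activator of the anaphase-promoting complex, was higher by 3.01 and Cdk1, the mitotic kinase, by 2.99. Cdk1 had 0, 21.3 and 761 TPM in WT and 4.88, 183 and 906 TPM in CTCF-KD cells. The highest cells were thus alike in the 2 cultures, and the difference stood in the WT cells with few or no Cdk1 reads. The mean over the G2/M list was 0.67 to 7.81 in WT cells (SD 2.79) and 1.42 to 6.95 in CTCF-KD cells (SD 1.45), so WT cells were spread over a wider range. On the log of the mean TPM the G2/M median turned to -0.40, and within the shared range of genes per cell it was 0.18.

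On the log of the mean TPM the medians were 0.93 for G1/S, 0.50 for mitochondrial ribosomal proteins and for purine synthesis and 0.40 for the proteasome, so their size depended on the scale. Other housekeeping lists had smaller differences. The proteasome, which degrades ubiquitinated proteins, had 5 of 37 genes past the cut upward (13.5%) and 0 downward and a median of 0.90. Psmd6 (3.66), Psmc5 (2.66), Psmd14 (2.09), Psmd1 (2.06) and Psmd3 (2.03) were the genes past it. Aminoacyl-tRNA synthetases, which charge tRNAs, had 1 of 20 past the cut, Farsa (3.22), a share of 5.0% near the 4.4% of all genes, and a median of 0.51 that turned to -0.15 on the log of the mean TPM and to -0.02 within the shared range of genes per cell. The CCT chaperonin and HSP90 system (29 genes, median 0.25), histone chaperones (24 genes, 0.20), actin and its regulators (27 genes, 0.14) and MHC class I genes (18 genes, 0.10, or -0.10 within the shared range of genes per cell) each had 1 gene past the cut upward and 0 downward. Their shares, 3.45%, 4.17%, 3.70% and 5.56%, were near that of all genes. These were Pfdn6 (2.27), Asf1b (2.29), Coro1a (2.68) and H2-Q7 (2.31). Coro1a, a lymphocyte coronin that binds actin, was at 0, 262 and 2422 TPM in WT and 551, 978 and 2089 TPM in CTCF-KD cells, so no CTCF-KD cell lacked it. In the p53 list 2 of 24 genes (8.33%) were past the cut, Trp53 itself (2.89) and Aen (2.70), an exonuclease also counted with ribosome biogenesis, and the median was -0.25, or 0.04 within the shared range of genes per cell. The 234 numbered zinc finger genes had 4 genes past the cut upward, a share of 1.71%, and a median of -0.09. Those 4 were Zfp330 (2.36), Zfp414 (2.16), Zfp593 (2.05) and Zfp637 (2.03). Of 57 clustered protocadherin genes listed, 0 passed the filter on low values.

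**Figure D3:**
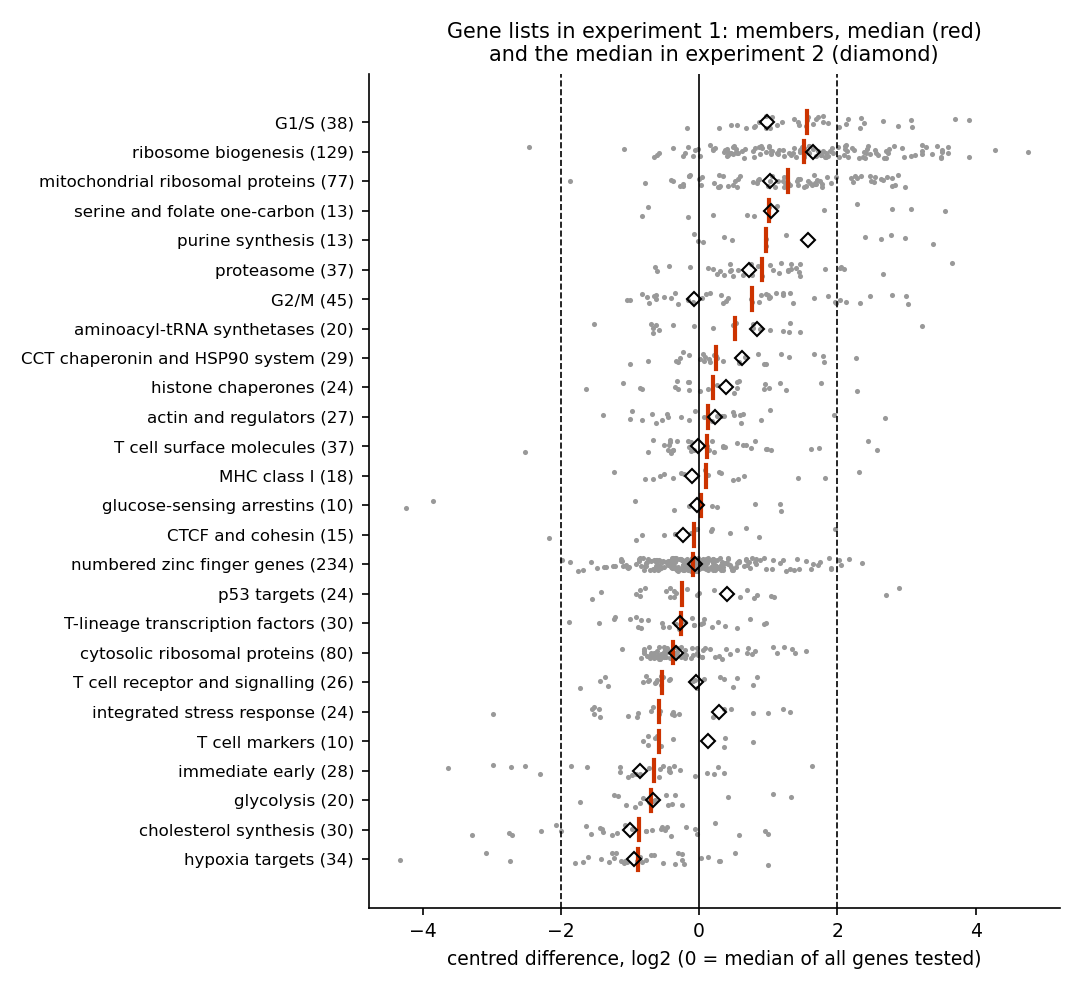
Centred differences of experiment 1 (log2, 0 is the median of all genes tested) for the members of each list of 10 or more tested genes (number in brackets); grey points are genes, red bars medians, diamonds the medians in experiment 2, and dashed lines the cut. G1/S (1.56), ribosome biogenesis (1.52) and mitochondrial ribosomal proteins (1.28) stand highest and hypoxia targets (-0.88) and cholesterol synthesis (-0.87) lowest.

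Hypoxia targets, which HIF switches on when oxygen is short, had 3 of 34 genes past the cut downward, or 8.82% against 0.563% of all genes, 0 upward, and a median of -0.88. These were Ankrd37, Kdm3a and Ndrg1. Ndrg1, a stress-responsive gene, was at 403, 1962 and 4546 TPM in WT cells and at 2.41, 402 and 1824 TPM in CTCF-KD cells, a difference of -2.73. The WT minimum thus lay at about the CTCF-KD median. Egln1, the prolyl hydroxylase that marks HIF for degradation and is itself a HIF target, was at -1.80. Of 20 glycolysis genes 0 were past the cut, yet 17 lay below 0 and the median was -0.69, or -0.35 before centring. Gpi1, the second enzyme of the pathway, was at 1021, 3734 and 10308 TPM in WT and at 1244, 2437 and 4112 TPM in CTCF-KD cells (-1.17). Pfkp (-1.23), a phosphofructokinase, and Aldoc (-1.73), an aldolase, were lower too, while Eno3, the muscle enolase, was at 1.33. Of 30 cholesterol synthesis genes 5 were past the cut downward (16.7% against 0.563% of all genes) and 0 upward, with a median of -0.87. Hmgcs1 (-3.28), Msmo1 (-2.75), Sqle, the squalene epoxidase (-2.28), and Mvd (-2.07) were past it. The other was Scd1 (-2.71), a fatty acid desaturase that the list also held and not an enzyme of sterol synthesis. In the list of 10 glucose-sensing arrestins and their partners Txnip and Gm15441 were past the cut and the median was 0.02. Gm15441 overlaps Txnip and its reads cannot be told apart from those of Txnip, so the 2 stand for 1 locus.

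Immediate early genes, which T cells switch on within minutes of a stimulus, had a median of -0.65. Of 28 genes 5 were past the cut downward (17.9% against 0.563% of all genes) and 0 upward. Egr1, an early growth response factor, was at 2.27, 270.2 and 1192 TPM in WT and at 0, 113 and 373 TPM in CTCF-KD cells, a difference of -2.30. Fos, Egr2, Junb and Cd69, an early activation antigen (-2.52), were the others. Myc, which encodes a driver of growth and ribosome synthesis and was singled out after its value was seen, was the highest member at 1.63, or 0.45 on the log of the mean TPM. For Fos the highest cell was in shCTCF #1, at 3726 TPM against 3357, while the medians were 267 and 945 TPM. The WT and CTCF-KD cells thus overlapped over the whole range for Fos, and 4 CTCF-KD cells had no Fos reads. Of the integrated stress response list, 1 of 24 genes (4.17%), Ppp1r15a, was past the cut downward, and the median of the list was -0.58. Ppp1r15a had 14.997, 243 and 1107 TPM in WT and 0, 63.2 and 736 TPM in CTCF-KD cells.

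Of 26 genes of the T cell receptor and its signalling 0 were past it, with a median of -0.54, and Ptpn6, a phosphatase that dampens the receptor's signal, was lowest at -1.72. Of 30 T-lineage transcription factors 0 were past it, with a median of -0.27. Before centring that median was 0.07, and those of the receptor list and of the T cell markers were -0.20 and -0.24. Gata3 was at 282, 874 and 2099 TPM in WT and at 2.12, 465 and 1559 TPM in CTCF-KD cells (-1.45). Stat3 (-1.87) and Bcl11b (-1.23) were also below 0. Of 37 surface molecules 2 were higher (5.41%) and 1 lower (2.70%) by the cut, against 4.4% and 0.563% of all genes. Ly6a, a Ly6 family antigen, was at 2.57 and Cd48, a ligand of the SLAM family, at 2.45, while Cd69 was the lower one, and the median was 0.11. Thy1 was at -0.74, Cd28, the costimulatory receptor, at -0.38 and Cd5, an inhibitor of receptor signalling, at 0.38, which turned to -0.67 within the shared range of genes per cell and to -0.11 on the log of the mean TPM. Cd5 had reads in 14 WT and 16 CTCF-KD cells, from 0 to 916 and from 0 to 661 TPM, so its cells were split between none and much in both cultures. Gapdh, a glycolytic enzyme often used as a reference, was at -0.47, or -0.14 before centring. Of the 10 T cell markers 0 were past the cut, with a median of -0.58. Among 15 genes of CTCF, cohesin and its loaders Ctcf alone was past the cut. The median of that list was -0.07. Cdca5, which encodes the cohesin stabiliser sororin, was at 1.97, and the cohesin subunits Stag2 and Stag1 were at -0.91 and 0.87.

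The cells of experiment 1 were also ordered by principal components of the 11193 genes. PC1 held 7.91% of the variance, and above 0 on it lay 22 cells of shCTCF #1 and 5 of shLuc #1. In 95.3% of cell pairs the value on PC1 was higher in the CTCF-KD cell. PC1 ran with the number of genes found in a cell, with a Pearson r of 0.92 over the 24 WT cells and 0.89 over the 24 CTCF-KD cells. These are descriptions within 1 culture each, and both measures come from the same TPM values. The order of cells on PC1 was therefore largely the order of genes found per cell in both cultures. PC2 held 4.08% of the variance, and the CTCF-KD cell was higher on it in 61.3% of pairs.

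**Figure D4:**
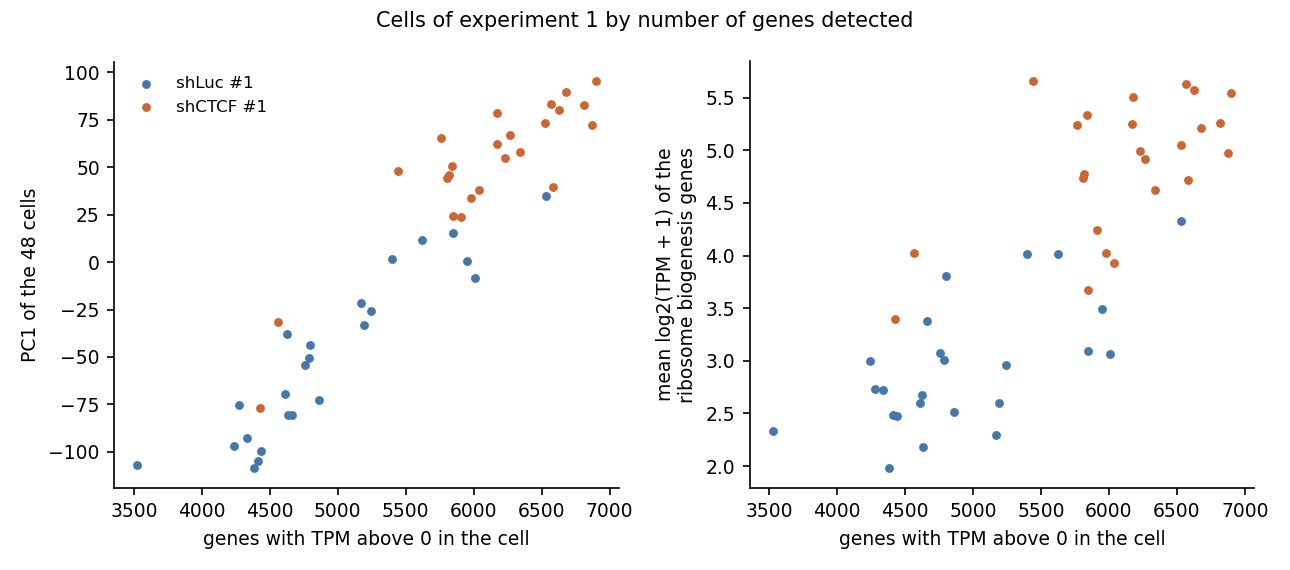
PC1 (left) and the mean log2(TPM + 1) of ribosome biogenesis genes (right) against the number of genes with TPM above 0, for the 24 cells of shLuc #1 and the 24 of shCTCF #1. CTCF-KD cells lie to the right, with a median of 6172.5 genes against 4771, and 18 of the 24 lie above every WT cell in ribosome biogenesis.

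Cell-to-cell variation was described with the measure of the study, the coefficient of variation (CV), here the SD divided by the mean of the log2(TPM + 1) values that the cells of 1 culture had. Since the values are logs, the CV depends on the level, and SDs are given beside it. Over 7851 genes with a mean above 1, the median CV was 1.04 in shLuc #1 and 0.747 in shCTCF #1, and the CV was lower in shCTCF #1 for 81.6% of them. By the study's rule, a change in CV more than 1 SD from the mean change, 596 genes (7.59%) had increased and 873 (11.1%) decreased variation. All 596 genes of the first kind had a level difference below 0, and 869 of the 873 of the second kind had one above 0. None of the genes higher by the cut had increased CV, while 213 of them had decreased CV, and 57 of the 63 lower genes had increased CV. Nearly all CV calls thus went with a level difference of the opposite sign, though most of these differences were within the cut. Among genes with a mean of at least 4, Ankrd37 had the largest increase, from 0.27 to 1.02, with SDs of 1.98 and 3.41. Txnip went from 0.23 to 0.76 (SD 1.70 and 2.68), and Ppp1r15a from 0.22 to 0.69 (SD 1.67 and 3.50). In the same set Umps had the largest decrease, from 1.63 to 0.27 (SD 2.77 and 1.73). The CV of Nop2 went from 1.65 to 0.51 although its SD was larger in CTCF-KD cells (2.82 and 3.25), and that of Brms1, a corepressor subunit, from 1.52 to 0.40 (SD 3.89 and 2.53). Ribosome biogenesis (33 of 125 genes) and G1/S (11 of 37) held many genes with decreased CV, and hypoxia targets (8 of 31) and immediate early genes (6 of 23) many with increased CV. With the SD in place of the CV, 998 genes were increased and 1046 decreased.

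Experiment 2 used other cultures on both sides, so it shares no cells with experiment 1. It held a like gap in genes per cell, with medians of 4635 in shLuc #2 and 5656 in shCTCF #2. After thinning these were 4087 (23 cells) and 5355 (21 cells). Median reads as recovered were 230477 and 131098. The part of this gap in the overlap of the 2 experiments was not tested. In experiment 2, 488 genes (4.36%) were higher in the shCTCF culture by the cut or more and 82 (0.733%) lower. Of all 11193 genes, 5596 lay above 0 there and 5596 below. Of the 493 higher genes of experiment 1, 187 (37.9%) were past the cut in the same direction in experiment 2, which is 38.3% of the 488 there, and 451 (91.5%) had the same sign. Of the 63 lower genes, 15 (23.8%) were past the cut in the same direction, or 18.3% of the 82, and 52 (82.5%) had the same sign. In neither direction was a gene past the cut with opposite signs in the 2 experiments. The list medians of experiment 2 lay close to those of experiment 1 for ribosome biogenesis (1.65 beside 1.52), hypoxia targets (-0.94 beside -0.88), glycolysis (-0.67 beside -0.69) and cholesterol synthesis (-0.997 beside -0.87). They lay further off for G1/S (0.98 beside 1.56), where 3 genes against 12 were past the cut upward. The same held for purine synthesis (1.58 beside 0.96) and the T cell receptor list (-0.05 beside -0.54). Past the cut in both experiments were 187 genes upward and 15 downward of all 11193. Upward in both were 28 of 129 ribosome biogenesis genes and 8 of 77 mitochondrial ribosomal proteins. So were 4 of 13 purine synthesis genes and 0 of 45 G2/M genes. Downward in both were 4 of 28 immediate early genes, 2 of 30 cholesterol synthesis genes and 0 of 34 hypoxia targets. For lists of these sizes a count of 0 is near the share over all genes. For CV, 649 genes (8.39%) of 7734 were increased and 855 (11.1%) decreased in experiment 2. Among the 7308 genes measured in both, 124 of the 491 genes increased in experiment 1 and 272 of the 746 decreased genes were called in the same direction in experiment 2.

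**Figure D5:**
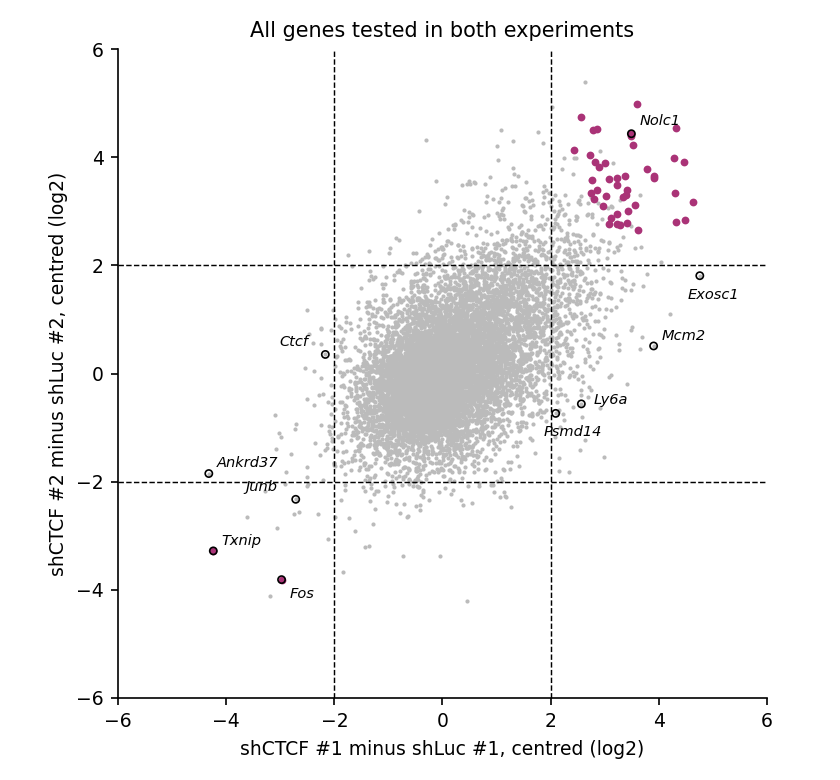
Centred difference in experiment 2 (vertical) against that in experiment 1 (horizontal), both log2, for 11193 genes; dashed lines mark the cut, filled purple points the 46 genes called by limma over the 4 cultures, and open circles the genes labelled. Nolc1 lies past the cut in both experiments, Txnip and Fos likewise on the lower side, and Ctcf lies at -2.17 and 0.35.

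A test with replicates was possible only over the 4 cultures, 2 per condition, and it includes shCTCF #2, in whose cells Ctcf mRNA was not lower by the TPM values. Over 11980 genes limma called 44 genes higher (0.367%) and 2 lower (0.0167%) in the shCTCF cultures, with a Benjamini-Hochberg adjusted p from 0.0468 to 0.049. All 46 were past the cut in experiment 1, whose cultures are part of this test. The differences in this test were not centred and had a median of 0.229 over all genes. The 2 lower genes were Txnip (log2 difference -3.48, standard error 0.51, adjusted p = 0.0468 by limma) and Fos (-3.11, standard error 0.44, adjusted p = 0.0468 by limma). Among the higher genes were 12 of ribosome biogenesis, namely Dkc1, Exosc2, Ftsj3, Imp4, Nob1, Noc4l, Nolc1, Nop16, Nop2, Ppan, Rrp15 and Wdr74. They also held Atic, Pfas and Ppat of purine synthesis, Mthfd1 and Shmt1 of one-carbon metabolism, Farsa, and Rfc4. Nolc1 differed by 4.25 (standard error 0.55, adjusted p = 0.0468 by limma). Ctcf did not pass (-0.62, standard error 0.69, adjusted p = 0.706 by limma), nor did Exosc1 (3.57, standard error 0.92, adjusted p = 0.110), Junb (adjusted p = 0.155), Egr1 (adjusted p = 0.0835) or Ankrd37 (adjusted p = 0.113). The calls were few and lay close to the threshold in this fit, which leaves out the pairing of cultures by experiment. With the experiment as a block limma called 650 genes higher and 37 lower. With the cultures centred on their medians it called 168 higher and 129 lower (56.6% higher against 95.7%), and without any one of the 4 cultures, or on the log of the mean TPM, it called 0. At an unadjusted p under 0.05, 1811 genes were higher and 178 lower over the 4 cultures. On the log of the mean TPM these were 574 and 338.

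The promoters of the genes past the cut were searched for 3 short motifs on both strands, in the 250 bases before and 50 after the start given by RefSeq for GRCm38.p6. A promoter was found for 386 of the 493 higher genes, 47 of the 63 lower genes and 8570 of the 11193 genes tested. CACGTG, the E-box bound by MYC and its relatives, was in 14.5% of the promoters of higher genes, 10.6% of those of lower genes and 10.5% of all. By list it was in 18.2% of 110 promoters of ribosome biogenesis, 25% of 12 of purine synthesis, 7.14% of 28 of G1/S and 10.7% of 28 of hypoxia targets, and in 19.05% of 21 each of cholesterol synthesis and immediate early genes. ACGTG or GCGTG outside CACGTG, the core to which HIF binds, was in 66.1%, 57.4% and 60.3%, and in 78.6% of 28 promoters of hypoxia targets and 75.5% of 110 of ribosome biogenesis. AGNGGGCGC, a relaxed core of the CTCF motif, was in 5.70%, 6.38% and 5.02%. Most promoters held neither the E-box nor the CTCF core, among the genes past the cut and among all genes tested alike. Of the 24 genes with the largest differences, Snord52, Gm15441, Mir3064 and Neat1 had no promoter sequence to search. Among the others the E-box was found before the start of 5, the higher genes Apex1, Nop2 and Dnph1 and the lower genes Egr2 and Ip6k1. These windows are shown, 5′ to 3′ on the strand of the gene, with the E-box in capitals, because the same letters occur in front of genes that differed in opposite directions:
Apex1: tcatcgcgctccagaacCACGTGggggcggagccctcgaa
Nop2: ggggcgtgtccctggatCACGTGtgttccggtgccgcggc
Dnph1: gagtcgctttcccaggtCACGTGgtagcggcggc
Egr2: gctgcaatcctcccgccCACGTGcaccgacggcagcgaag
Ip6k1: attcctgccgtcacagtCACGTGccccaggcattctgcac
The windows are chr14:50924908-50924947, chr6:125131806-125131845, chr17:46496755-46496788, chr10:67535455-67535494 and chr9:108002435-108002474 of GRCm38.p6, all on the plus strand, and the E-box begins 24, 60, 17, 27 and 196 bases before the start. A match is a match of letters and says nothing of binding in these cells.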

How the data were processed

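Single-cell RNA-seq values of 96 EL4 cells were analysed, 24 from each of 4 cultures, and groups were taken from the sample titles. The authors used STAR and GRCm38, took uniquely mapped reads into gene counts by HTSeq and deposited TPM values for 24057 genes. TPM is adjusted for gene length and the total of each cell, and no molecular identifiers are described. The binomial intervals take the cells of a single culture as units and hold no spread between cultures. 1 cell (of shLuc #2) with fewer than 3000 genes was left out. Whole reads were recovered as the common step of each gene over cells (100% of 503188 values within 0.001 of a whole number; 1336 genes found in 1 cell were taken as 1 read there). On simulated cells 99.77% of 138705 values were returned exactly. Depth, thinning and read counts rest on these reads.

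Levels, the filter, centring and the cut are described with the results. The cut was tried on simulated cells: with 100 of 9882 genes changed 16-fold each way, 90 and 59 passed it, and 39 unchanged genes did. All simulated cultures were drawn from the rates, spread and reads of shLuc #1 cells. Apart from the changed genes they differed by the drawing of cells only. They hold no variation between cultures and no shift in genes per cell, so calls from these sources are not covered. limma 3.58.1 (R 4.3.3, with trend and Benjamini-Hochberg at 0.05) was fitted to the 4 culture values with no block. This main fit leaves out the pairing of cultures by experiment, and the fit with the experiment as a block was an alternative. The culture numbers mark the initial experiment and the second knockdown in the study's methods, and deviations of same-numbered cultures had a correlation of 0.262 over 11980 genes. On simulated cultures of the same kind, without variation between cultures of like condition, limma called 167 genes, 164 of the 200 changed. Cells of a culture were never used as replicates of a condition. Python 3.11.15, numpy 2.4.6, pandas 2.3.3 and scipy 1.17.1 were used.

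The members and the 31 gene lists were chosen with earlier results of these data known. 1 list of markers of other cells is not reported here. Genes named were Ctcf, Junb, Txnip, Nolc1, genes the study's text names and Gapdh, the 12 largest higher and lower values among genes with a mean log2(TPM + 1) of at least 2, up to 4 members of each list with the largest differences, and the 3 largest CV changes each way among genes with a mean of at least 4. The rule also took genes past the cut with opposite signs in the 2 experiments, of which there were 0. Members past the cut beyond these were named after their values were seen. Gene positions are from GENCODE M21. Alternatives were the scale of the mean, pseudocounts of 0.1 and 10, filters, no centring, matched or thinned cells, other cuts, and for limma the block, the scale and single cultures left out. Centring of cultures on their medians was added after the data were seen.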

Additional observations from a re-analysis of the deposited data

Results flagged for a closer look

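In experiment 2 the sign was opposite for 42 of the 493 genes past the cut upward in experiment 1 and for 11 of the 63 past it downward. Those among the genes named, and lists whose medians differed in sign, are given as centred differences of shCTCF minus shLuc, experiment 1 first, and the difference between the experiments was not tested for any of them. Ctcf was at -2.17 and 0.35. Ly6a, a surface antigen, was at 2.57 and -0.56. Psmd14, a deubiquitinase of the proteasome, was at 2.09 and -0.74. H2-Q7, a nonclassical MHC class I gene, was at 2.31 and -0.50. Zfp414 was at 2.16 and -0.027, so that its value in experiment 2 was near 0. The median of the integrated stress response list was -0.58 and 0.29, that of the G2/M list 0.77 and -0.072, that of the T cell markers -0.58 and 0.13, and that of the p53 list -0.25 and 0.41. Nearer to 0 were MHC class I (0.10 and -0.11), the surface molecules (0.11 and -0.01) and the arrestins (0.02 and -0.03). Znrd1, named after its values were seen, was at -2.46 and 0.72.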

How the results depend on the processing

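Of the 125 genes named, 71 were past the cut, and all 71 kept their sign under 7 alternatives each. Of these, 58 were past it within the shared range of genes per cell, 27 on the log of the mean TPM and 29 with a pseudocount of 10. Higher and lower genes past the cut numbered 1192 and 372 with a pseudocount of 0.1, 57 and 6 with a pseudocount of 10, 769 and 32 without centring, 1789 and 830 at a cut of 1 and 86 and 10 at a cut of 3. The lower genes numbered 446 on the log of the mean TPM, 100 among genes with a mean above 1, 145 within the shared range and 115 on thinned reads. Lists with a median of 0.5 or more numbered 8, and 3 on the log of the mean TPM and 5 with a pseudocount of 10. Lists with a median of -0.5 or less numbered 7, and 4, 1 and, without centring, 2. The G2/M median became -0.40 and that of aminoacyl-tRNA synthetases -0.15 on the log of the mean TPM, and the latter -0.021 in the shared range. Without centring, medians turned to 0.07 for T-lineage factors, 0.08 for the p53 list, 0.25 for numbered zinc fingers and 0.26 for CTCF and cohesin. For CV, 998 genes were increased by the SD, and 244 increased and 424 decreased among genes with a mean above 4. limma called 44 genes higher and 2 lower, 650 and 37 with the replicate block, 168 and 129 with centred cultures, 0 and 0 on the log of the mean TPM, and from 0 to 0 in each direction when 1 culture was left out, with the lone culture assumed to vary like the others (smallest adjusted p 0.405 to 0.507). Scale, cut and number of cultures are in the construction of these alternatives, and other causes were not tested. Depth limits genes of few reads such as Snord52 and Mir3064.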
